A study of Mus musculus with 12 samples.

Results

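The Serpina cluster of mouse chromosome 12 encodes plasma proteins of the serpin family, and 10 of its genes are described here across 4 groups of cultured liver cells. The members were taken by symbol from the deposited table of raw counts. They are Serpina1a, Serpina1b, Serpina1c, Serpina1d, Serpina1e, Serpina3k, Serpina3m, Serpina3n, Serpina6 and Serpina10, which make 10 of the 53599 genes in the table and 10 of the 29507 genes with at least 1 count. All 10 had enough counts in at least 1 group to enter the test among the 14798 genes tested.

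The study measured RNA-seq in 12 libraries, 3 in each group. The hepCLiP lines were made from mouse hepatocytes. The bilCLiP lines were made from BEC, the epithelial cells that line bile ducts. The 2D groups grew on collagen in small hepatocyte medium (SHM) with 10% FBS and YAC, a mix of Y-27632, A83-01 and CHIR99021, which inhibit ROCK, the TGF-beta receptor and GSK3. The 3D groups were made from the 2D cells as spheroids, for 3 days in microwells in SHM+YAC with no FBS, then for 6 to 8 days in suspension in that medium, to which oncostatin M, an interleukin 6 family cytokine, was added at 10 ng/ml. All 4 groups therefore carried YAC. Shape, growth on collagen, serum, oncostatin M and the added days in culture all differed between the 3D and 2D groups. These cannot be told apart. The genotype tag was RosaConfetti for hepCLiP replicates 1 and 3 and RosaYFP for hepCLiP replicate 2 and every bilCLiP sample, so that origin and reporter background overlap in part. The groups follow the sample titles, since the treatment tag contradicts the title in hepCLiP 2D replicate 3 and in the 3 bilCLiP 3D samples. Across genes, log2 values of hepCLiP 2D replicate 3 had a correlation of 0.944 or more with its own group and of 0.852 or less with any 3D library. Nothing in the labels ties replicates to separate animals, and the p-values measure the spread between these samples only.

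Serpins are protease inhibitors that present a reactive centre loop as bait, are cut by the target protease and trap it in a covalent complex. In the liver, hepatocytes secrete most circulating serpins. Serpina1 encodes alpha-1-antitrypsin, the main plasma inhibitor of neutrophil elastase, which is a single gene in humans and a group of tandem copies in mice. Serpina3 genes are the mouse relatives of alpha-1-antichymotrypsin, an acute phase protein that interleukin 6 family cytokines induce. Serpina10 encodes the protein Z-dependent inhibitor of coagulation factor X in its active form. Serpina6 encodes corticosteroid-binding globulin, a carrier that no longer inhibits proteases.

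Total counts ran from 16142365 to 21253382 per library, and CPM below are read counts scaled to the library's size by TMM. The 10 members took 0.0001% to 0.0453% of all counts in the 2D libraries and 0.574% to 2.34% in the 3D libraries. Summed over 5 hepatocyte markers (Alb, Ttr, Apoa1, Hnf4a and Cps1), the level was 335 to 1600 CPM in hepCLiP 2D and 40570 to 51230 CPM in hepCLiP 3D, and 178 to 1041 CPM in bilCLiP 2D against 17330 to 43080 CPM in bilCLiP 3D. The summed biliary markers (Krt19, Krt7, Sox9, Epcam and Spp1) were at 3113 to 10330 CPM in the 2D libraries and 11270 to 33260 CPM in the 3D libraries, where Spp1 made up most of the sum and Krt19 had fallen to a mean of 8.74 CPM in hepCLiP and 5.32 CPM in bilCLiP. Epcam, a defining biliary marker, stayed at a mean of 1.66 to 5.32 CPM in every group. Neutrophil, endothelial and lymphocyte marker sums were at most 5.32, 3.66 and 0.417 CPM in any library, and Mpo, Cd3e and Cd3g were at 0 in 3, 4 and 4 of the groups. The macrophage sum was at most 19.2 CPM with Adgre1 and Clec4f at 0 in 3 groups. The mesothelial sum, mostly Msln, was 333 to 989 CPM in 2D against 5.57 to 27.9 CPM in 3D. The fibroblast and stellate sum reached 283 CPM in 1 hepCLiP 3D library, mostly Dcn, and at most 18.9 CPM elsewhere. The hepatocyte sum was higher in 3D, as the members were, and the mesothelial sum and Krt19 were lower, and their part in the results was not tested. In bulk RNA, more cells that express a gene and more RNA per cell cannot be told apart.

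In hepCLiP, 9 of the 10 members rose and none fell, where 16.9% of all tested genes rose and 17.9% fell (edgeR quasi-likelihood test, Benjamini-Hochberg adjusted p under 0.05). Serpina6 was the member that did not pass. In bilCLiP all 10 rose, where 15.8% of all tested genes rose and 14.5% fell. The median log2 fold change of the 10 members was 7.66 in hepCLiP, against -0.06 over all tested genes. In bilCLiP it was 13.66 as fitted and 12.45 with the 5 members that had no count in 2D set at their lower bound, against -0.00 over all tested genes. Those 5, Serpina1d, Serpina1e, Serpina3k, Serpina3m and Serpina6, had not 1 count in any of the 3 bilCLiP 2D libraries. They entered the test through other groups and could not fall in bilCLiP.

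**Figure D1:**
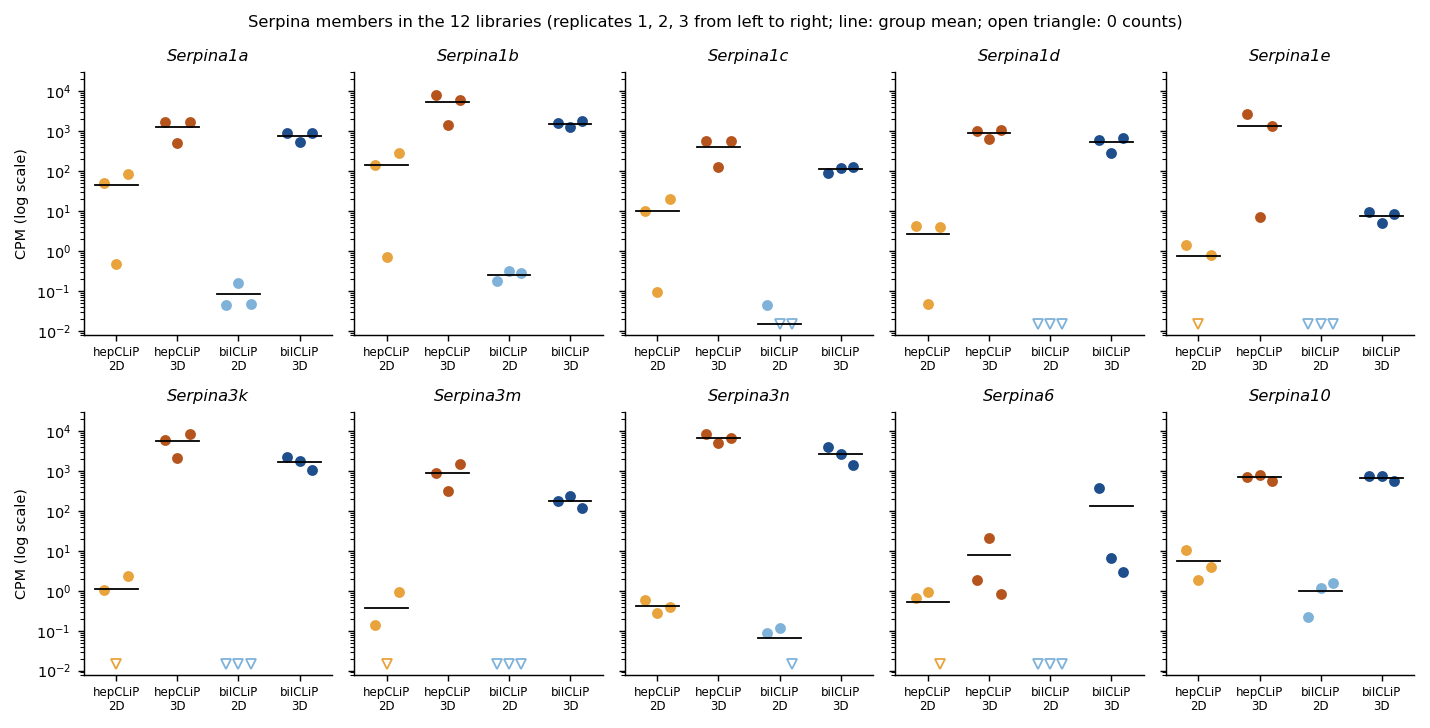
CPM on a log scale of the 10 members in each of the 12 libraries, with the group mean as a line and libraries with 0 counts as open triangles below the scale. In both origins the 3D libraries of every member stand above its 2D libraries, apart from Serpina6 in hepCLiP, and hepCLiP replicate 2 (middle point) is low for the Serpina1 copies.

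The 5 Serpina1 copies are nearly the same gene. Their coding sequences, 1239 bases each without the stop codon in the GENCODE vM21 annotation, were 96.3% to 98.5% identical to each other and differed at 86 positions in all. The 60-base window with the most variable positions, 18 of the 86, encodes the reactive centre loop, and is printed for each copy because it is the stretch that sets which protease a copy can bind. It spans coding bases 1101 to 1160 in coding exon 4 of 4, on the minus strand of GRCm38. Capitals mark bases unlike the commonest base of the 5 copies at that position, with a tie going to the alphabetically first.
Serpina1a, chr12:103853757-103853816: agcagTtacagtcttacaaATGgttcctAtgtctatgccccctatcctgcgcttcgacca
Serpina1b, chr12:103728324-103728383: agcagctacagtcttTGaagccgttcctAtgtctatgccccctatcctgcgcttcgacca
Serpina1c, chr12:103895094-103895153: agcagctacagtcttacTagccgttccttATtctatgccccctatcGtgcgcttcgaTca
Serpina1d, chr12:103763762-103763821: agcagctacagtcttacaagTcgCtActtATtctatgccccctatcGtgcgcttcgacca
Serpina1e, chr12:103947100-103947159: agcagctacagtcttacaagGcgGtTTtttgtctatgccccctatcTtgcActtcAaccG
Serpina1b had 3 bases unlike the commonest base and Serpina1e had 8. Elsewhere the copies share long stretches without a mismatch. Of all 100-base windows of the coding sequence, 64.3% of those of Serpina1a, 61.8% of Serpina1c, 33.3% of Serpina1d, 30.0% of Serpina1b and 19.1% of Serpina1e occurred exactly in a transcript of another gene, always another Serpina1 copy or the pseudogene Gm8893. The values of single copies are therefore uncertain, since reads from shared stretches can be split, misassigned or dropped, and the sum over the copies is given beside them.

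Serpina1b had the highest mean level of the Serpina1 copies per kilobase of exon in all 4 groups. In hepCLiP replicates 1, 2 and 3 it stood at 141, 0.682 and 276 CPM in 2D and at 8017, 1428 and 6117 CPM in 3D. In bilCLiP it stood at 0.172, 0.311 and 0.273 CPM in 2D and at 1548, 1283 and 1755 CPM in 3D. The cultures did not overlap in either origin, and hepCLiP replicate 2 was the lowest library of its group in both cultures. The log2 fold change was 5.22 ± 1.39 (SE; adjusted p = 0.0144) in hepCLiP and 12.52 ± 1.94 (adjusted p = 0.00105) in bilCLiP. The hepCLiP call was lost with no low-count filter (adjusted p = 0.0621) and with only the compared groups in the fit (adjusted p = 0.0598).

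Serpina1a followed the same course at a lower level. Its hepCLiP libraries held 49.0, 0.455 and 81.4 CPM in 2D and 1704, 492 and 1631 CPM in 3D. Its bilCLiP libraries held 0.0431, 0.156 and 0.0456 CPM in 2D, which were 6 counts in all, and 909, 519 and 870 CPM in 3D. The log2 fold changes were 4.87 ± 1.21 (SE; adjusted p = 0.0102) in hepCLiP and 13.04 ± 1.82 (adjusted p = 0.000602) in bilCLiP. With limma-voom, the bilCLiP calls of Serpina1a and Serpina1b were lost (adjusted p = 0.0563 and 0.0960).

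Serpina1c was low in every bilCLiP 2D library. In hepCLiP it stood at 9.99, 0.0909 and 19.3 CPM in 2D and at 546, 125 and 546 CPM in 3D, with the lowest library of each culture being replicate 2. The change was 5.38 ± 1.12 (log2, SE; adjusted p = 0.00428). In bilCLiP, 1 count in replicate 1 was the whole 2D signal, and 3D held 87.0, 118 and 124 CPM. The ratio of 3D to 2D was 7847 with an exact 95% interval of 1408 to 310000, which covers counting error only (adjusted p of the fitted change = 0.000867).

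Serpina1d stood in hepCLiP 2D at 4.12, 0.0455 and 3.95 CPM, again with replicate 2 the lowest, and at 972, 625 and 1032 CPM in 3D. The change was 8.34 ± 1.10 (log2, SE; adjusted p = 0.000742). In bilCLiP it went from 0 counts to 608, 287 and 682 CPM. Against 3 counts summed over the 2D libraries, the bilCLiP rise was at least 12320-fold (adjusted p of the fitted change = 0.000336).

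Serpina1e split the libraries in another way. In hepCLiP 2D it stood at 1.39, 0 and 0.799 CPM, and in hepCLiP 3D at 2677, 7.10 and 1307 CPM. In bilCLiP it had 0 counts in 2D and 9.22, 4.88 and 8.18 CPM in 3D. hepCLiP 3D replicate 2 thus lay within the range of the bilCLiP 3D libraries, far below the other hepCLiP 3D libraries. The hepCLiP rise was called (log2 10.83 ± 2.09, adjusted p = 0.00446) and was lost with limma-voom (adjusted p = 0.166). The bilCLiP rise was at least 173.5-fold (adjusted p of the fitted change = 0.0365). It was not called in the fits without any 1 bilCLiP library (adjusted p = 0.0651 to 0.0813), without hepCLiP 2D replicate 3 (adjusted p = 0.0524) or without hepCLiP 3D replicate 3 (adjusted p = 0.0560), nor with limma-voom (adjusted p = 0.453), no low-count filter (adjusted p = 0.162) or a test against a 2-fold change (adjusted p = 0.0990).

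Summed over the 5 copies, the counts were 12110 in hepCLiP 2D and 380747 in hepCLiP 3D, and 25 in bilCLiP 2D and 145817 in bilCLiP 3D. By library the sum was 206, 1.27 and 382 CPM in hepCLiP 2D, 13920, 2678 and 10630 CPM in hepCLiP 3D, 0.258, 0.466 and 0.319 CPM in bilCLiP 2D, and 3161, 2212 and 3440 CPM in bilCLiP 3D. In a table with the copies summed, where 16.8% of genes rose in hepCLiP and 15.7% in bilCLiP, the summed Serpina1 counts rose by 5.53 (log2) ± 1.39 (SE; adjusted p = 0.0107) in hepCLiP and 13.01 ± 1.91 (adjusted p = 0.000811) in bilCLiP. In hepCLiP, replicate 2 was the lowest library in both cultures, and the cultures did not overlap in either origin.

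**Figure D2:**
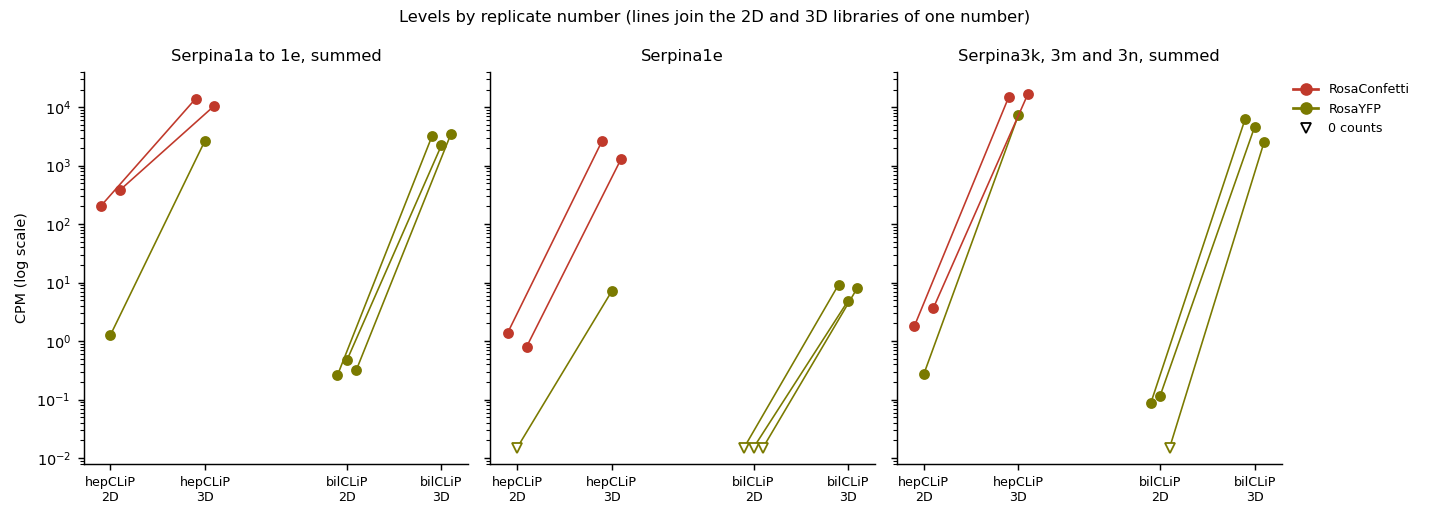
CPM on a log scale of the summed Serpina1 copies, of Serpina1e and of the summed Serpina3 members, with lines joining the 2D and 3D libraries of one replicate number and colours for the reporter genotype. The RosaConfetti hepCLiP libraries lie above every RosaYFP library for Serpina1 in both cultures, and hepCLiP replicate 2 lies near the bilCLiP libraries for Serpina1e.

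The 3 Serpina3 members were nearly silent in 2D in every library, replicate 2 or not. Serpina3n, the acute phase member best known in mouse liver, stood at 0.601, 0.273 and 0.400 CPM in hepCLiP 2D and at 8180, 4921 and 6625 CPM in hepCLiP 3D. In bilCLiP it stood at 0.0861, 0.117 and 0 CPM, 5 counts in all, and at 4010, 2664 and 1391 CPM in 3D. It had the largest fitted rise of the members in hepCLiP, 13.90 ± 0.72 (log2, SE; adjusted p = 7e-06), and rose by 15.10 ± 0.78 (adjusted p = 4.97e-06) in bilCLiP. The cultures did not overlap, and replicate 2 was the lowest hepCLiP library in 3D.

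Serpina3k, which encodes contrapsin, held 1.06, 0 and 2.30 CPM in hepCLiP 2D and 6105, 2075 and 8558 CPM in 3D. In bilCLiP it had 0 counts in 2D and 2176, 1734 and 1039 CPM in 3D. The rise was 12.29 ± 1.36 (log2, SE; adjusted p = 0.000357) in hepCLiP and at least 38490-fold in bilCLiP (adjusted p of the fitted change = 0.000284), the largest lower bound of the 10. Serpina3m, a near relative with 92.6% coding identity to Serpina3k, held 0.139, 0 and 0.949 CPM in hepCLiP 2D and 874, 308 and 1500 CPM in 3D, a rise of 11.28 ± 1.14 (adjusted p = 0.000233). In bilCLiP it went from 0 counts to 178, 239 and 121 CPM, at least 4245-fold (adjusted p = 0.000313). Of the 100-base coding windows, 8.22% of Serpina3k and of Serpina3m and 0.346% of Serpina3n were shared exactly with another gene, so that these members are more separable than the Serpina1 copies. Their summed counts were 118 against 549936 in hepCLiP and 5 against 221399 in bilCLiP, log2 fold changes of 12.74 ± 1.07 (adjusted p = 4.55e-05) and 15.85 ± 1.24 (adjusted p = 2.82e-05).

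Serpina10 reached like levels in all 3D libraries. It stood at 10.4, 1.91 and 3.90 CPM in hepCLiP 2D and at 706, 795 and 555 CPM in hepCLiP 3D. In bilCLiP it stood at 0.215, 1.17 and 1.60 CPM in 2D and at 738, 732 and 551 CPM in 3D. The 3D libraries of both origins overlapped, and hepCLiP replicate 2 was not low among them. The rise was 6.98 ± 0.73 (log2, SE; adjusted p = 0.000132) in hepCLiP and 9.40 ± 0.82 (adjusted p = 5.51e-05) in bilCLiP. No 50-base window of its coding sequence, nor of that of Serpina6, occurred in another gene.

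Serpina6 was the least regular member. In hepCLiP it held 0.648, 0.909 and 0 CPM in 2D and 1.83, 21.0 and 0.834 CPM in 3D, so that the cultures overlapped. The fitted rise of 3.89 ± 2.13 (log2, SE) did not pass (adjusted p = 0.190). With the replicate number within each origin as a block, it was called (3.55, adjusted p = 0.0162), in a fit where 22.4% of tested genes rose. Without hepCLiP 3D replicate 2 the value was 1.32 (adjusted p = 0.719). In bilCLiP it had 0 counts in 2D and 384, 6.43 and 2.96 CPM in 3D. Replicate 1 thus held nearly the whole bilCLiP signal, and the rise was at least 2842-fold over the pooled libraries (adjusted p of the fitted change = 0.0180). That call was lost with limma-voom (adjusted p = 0.185), with no low-count filter (adjusted p = 0.0958), with only the compared groups in the fit (adjusted p = 0.0731) and with RosaYFP samples only (adjusted p = 0.0732). Without bilCLiP 3D replicate 1 it was called (adjusted p = 0.0244). DESeq2 gave no p-value for Serpina6 in any comparison.

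**Figure D3:**
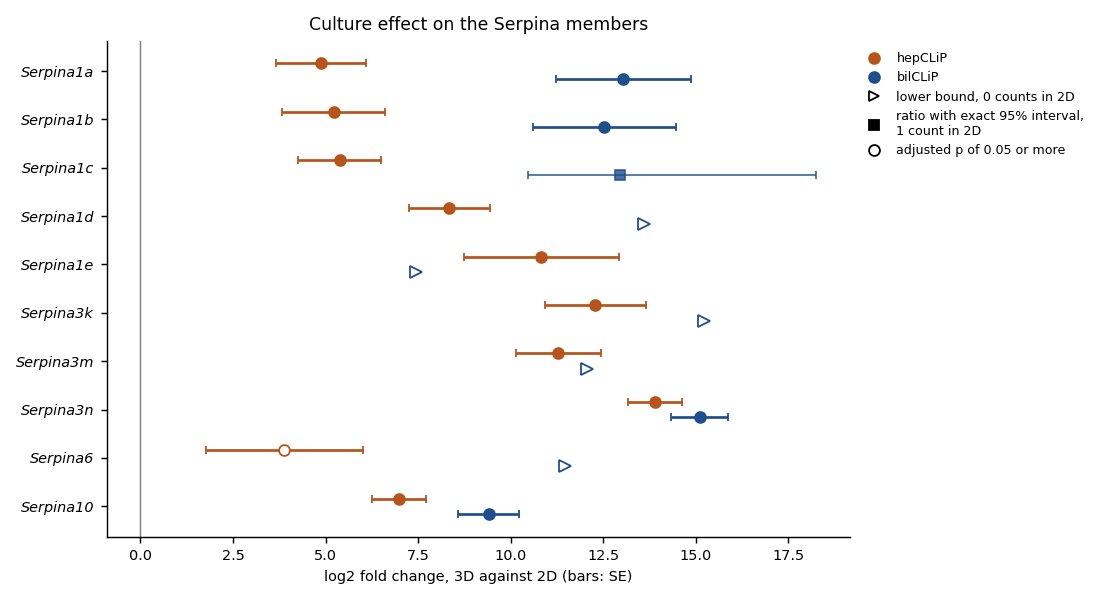
Log2 fold change of 3D against 2D for each member, with SE bars, in hepCLiP and bilCLiP. Triangles are lower bounds for the 5 members with 0 counts in bilCLiP 2D, the square is the ratio for Serpina1c with its exact interval, and the open circle is Serpina6 in hepCLiP, which did not pass.

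Per kilobase of exon the order of the members changed with culture. In hepCLiP 2D the mean levels were led by Serpina1b at 57.7 ± 57.0 CPM per kb (SD, n = 3) and Serpina1a at 23.8 ± 22.3, and Serpina3n came last at 0.206 ± 0.0803. In hepCLiP 3D the order was Serpina3n at 3186 ± 790, Serpina3k at 2712 ± 1591, Serpina1b at 2148 ± 1404, Serpina1e at 823 ± 826, Serpina1a at 696 ± 371, Serpina1d at 629 ± 158, Serpina3m at 520 ± 347, Serpina1c at 298 ± 178, Serpina10 at 196 ± 34.7 and Serpina6 at 4.48 ± 6.45 CPM per kb. Only the step from Serpina10 to Serpina6 was larger than the larger SD of the neighbours. In bilCLiP 3D Serpina3n led with 1303 ± 635, followed by Serpina3k at 802 ± 279, Serpina1b at 633 ± 98.0, Serpina1a at 418 ± 117, Serpina1d at 377 ± 150, Serpina10 at 193 ± 30.3, Serpina3m at 104 ± 34.5, Serpina1c at 80.6 ± 14.6, Serpina6 at 74.5 ± 124 and Serpina1e at 4.59 ± 1.40 CPM per kb. There the steps below Serpina1b, Serpina1d and Serpina10 were larger than the larger SD of the neighbours, and the others were not. In bilCLiP 2D Serpina10 led at 0.284 ± 0.202 CPM per kb, and the levels of the 4 other detected members were 0.0106 to 0.104. Lengths come from GENCODE vM21 and not from the authors' annotation, which limits these levels.

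The origins were compared within each culture. In 2D, the median log2 fold change of bilCLiP against hepCLiP over the members was -7.09 as fitted and -4.39 with members at 0 set at their bound, against -0.04 over all genes. None of the 10 was called by edgeR, where 0.135% of all genes were, and the smallest adjusted p of a member was 0.0893. At an unadjusted p under 0.05, 8 members and 14.5% of all genes stood. DESeq2 called 8 members as lower in bilCLiP, all but Serpina1e and the untested Serpina6, where it called 3.39% of genes. limma-voom and limma on the authors' normalized values called 0. The 2D levels of the Serpina1 copies in hepCLiP replicate 2 were 0.682 CPM or less, close to the bilCLiP libraries, while replicates 1 and 3 held up to 276 CPM.

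In 3D, none of the members was called by edgeR, where 0.101% of all genes were, 3 stood at an unadjusted p under 0.05 (Serpina1e, Serpina3m and Serpina3n), as did 16.6% of all genes, and limma-voom called 0. DESeq2 called Serpina1e and Serpina3n as lower in bilCLiP, where it called 4.12% of genes. The median log2 fold change was -1.52 against 0.00 over all genes. Serpina3n differed by -1.29 ± 0.43 (log2, SE; adjusted p = 0.205), with all 3 bilCLiP libraries below all 3 hepCLiP libraries. Serpina3m differed by -2.32 ± 0.74 (adjusted p = 0.208), also without overlap. Serpina1c differed by -1.89 ± 0.96 (adjusted p = 0.345), with a narrow gap between the origins. Serpina1e differed by -7.49 ± 1.79 (adjusted p = 0.163), with hepCLiP replicate 2 inside the bilCLiP range. Serpina10 differed by -0.02 ± 0.56 (adjusted p = 0.989), and Serpina6 by 4.05 ± 1.89 (adjusted p = 0.321) in the other direction, which without bilCLiP 3D replicate 1 was -0.76.

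The difference between the 2 culture effects was not called for any member nor for any gene (0.0%) by edgeR. At an unadjusted p under 0.05 it stood for 5 members (Serpina1a, Serpina1b, Serpina1c, Serpina1d and Serpina10) and for 3.6% of genes. DESeq2 called Serpina1a (8.27, adjusted p = 0.00938), where it called 0.0521% of genes. limma-voom and limma on the normalized values called 0 members. No median of the fitted differences is given, since 5 members had no count in bilCLiP 2D.

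The low Serpina1 values in hepCLiP were those of replicate 2, the only hepCLiP replicate tagged RosaYFP. Its genotype therefore cannot be told apart from anything else particular to that replicate. The RosaConfetti lines, hepCLiP replicates 1 and 3, also held RNA of the Y-linked genes Ddx3y, Eif2s3y, Kdm5d and Uty, at 24.9 to 128 CPM, which were at 0.0909 CPM or less in the 8 other libraries. Xist was at 812 to 1163 CPM in the bilCLiP libraries and at 0.284 CPM or less in every hepCLiP library, replicate 2 included. Genotype and the Y-linked genes cannot be told apart here. Xist and origin cannot be told apart in any comparison of the origins, that within RosaYFP samples included. The part of genotype, the Y-linked genes and Xist in the Serpina levels was not tested. Within RosaYFP samples, a comparison chosen for the genotype, 1 hepCLiP library per culture remained, and its spread is assumed to be that of the other groups. There the summed Serpina1 counts differed between bilCLiP and hepCLiP by -1.85 (log2, adjusted p = 0.274) in 2D and 0.13 (adjusted p = 0.895) in 3D, and Serpina1e in 3D by 0.06 (adjusted p = 0.975).

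With the RosaConfetti hepCLiP lines alone set against all bilCLiP samples, a comparison added after the values were seen, the 2D difference was called for 6 members (Serpina1a, Serpina1b, Serpina1c, Serpina1d, Serpina1e and Serpina3k), where 0.761% of genes were. The summed Serpina1 counts then differed by -9.68 in 2D (adjusted p = 5.59e-05) and by -2.07 in 3D (adjusted p = 0.0458). In 3D, Serpina1b, Serpina1c and Serpina1e were called, where 0.597% of genes were, with Serpina1e at -8.07 (adjusted p = 0.00152). The difference of the culture effects was called for Serpina1a, Serpina1b and Serpina1c, the 3 genes that make up the 0.0197% called in that fit. Origin, genotype, Y-linked RNA and Xist coincide in it and cannot be told apart. For 3D against 2D in hepCLiP, 9 members rose within RosaYFP samples, where 2.47% of tested genes did, and 9 rose with the RosaConfetti lines, where 10.5% did.

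The composition of the Serpina1 sum differed between the 3D libraries. In hepCLiP 3D replicates 1, 2 and 3, Serpina1e made up 19.2%, 0.265% and 12.3% of the summed copies, against 0.292%, 0.221% and 0.238% in bilCLiP. Its mean share was 10.6% ± 9.60 (SD, n = 3) against 0.25% ± 0.0371 (exact permutation p = 0.2, and 0.5 after adjustment over the 5 copies). Serpina1a made up 12.3%, 18.4% and 15.3% in hepCLiP and 28.8%, 23.5% and 25.3% in bilCLiP, so that every bilCLiP library lay above every hepCLiP library. The mean share of Serpina1a was 15.3% ± 3.07 (SD, n = 3) against 25.8% ± 2.69, with an exact two-sided permutation p of 0.1, the smallest that 3 against 3 allows, and 0.5 after adjustment over the 5 copies. Serpina1b held 56.2% ± 2.45 of the sum in hepCLiP and 52.7% ± 4.73 in bilCLiP (exact permutation p = 0.4, n = 3). Serpina1c held 4.58% ± 0.610 and 3.90% ± 1.32 (exact permutation p = 0.5, n = 3), and Serpina1d 13.3% ± 8.77 and 17.4% ± 3.79 (exact permutation p = 0.6, n = 3). The Serpina1d share was 6.99% and 9.71% in the RosaConfetti 3D libraries and 23.3% in hepCLiP 3D replicate 2, above all bilCLiP libraries. The pseudogene Gm8893, which shares windows with all 5 copies, held 87.5, 57.0 and 93.8 CPM in hepCLiP 3D and 22.5, 52.0 and 47.5 CPM in bilCLiP 3D.

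**Figure D4:**
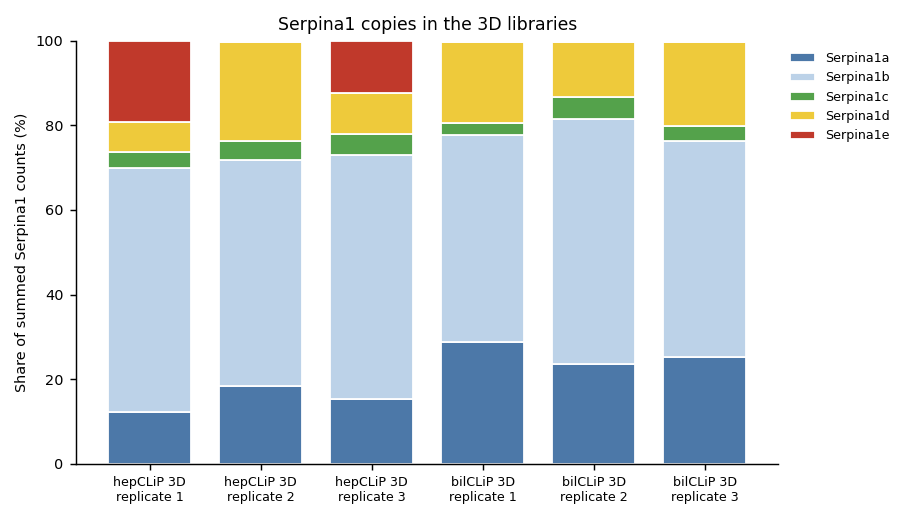
Share of each Serpina1 copy in the summed Serpina1 counts of the 3D libraries, as stacked bars from 0 to 100%. Serpina1e is visible only in hepCLiP replicates 1 and 3, at 19.2% and 12.3%, and Serpina1a is larger in the bilCLiP libraries.

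Promoter windows were at hand in RefSeq (GRCm38.p6) for 6 of the 10 members, namely the 5 Serpina1 copies and Serpina3n. The 250 bases before the start sites of the Serpina1 copies were 92.0% to 98.0% identical over the 188 to 248 bases that aligned. A search on both strands for letters bound by liver factors, HNF4 (CAAAGTCCA, found in 0.384% of 32851 mouse promoter windows of this length), C/EBP (TTNNGCAA, 9.56%) and STAT (TTCNNNGAA, 7.02%), found matches to C/EBP alone. They lay on the opposite strand in Serpina1b, Serpina1d and Serpina1e, at 161 to 154, 149 to 142 and 211 to 204 bases before the start. Serpina1a and Serpina1c held another octamer at that place, TTGCTTAG, which is no match. In the stretch around it, Serpina1a and Serpina1c differ from each other and from the other copies. The stretch is printed for the 5 copies, which rose together, on the minus strand with the octamer in capitals.
Serpina1a, chr12:103863739-103863798: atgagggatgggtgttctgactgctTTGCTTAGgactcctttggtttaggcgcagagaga
Serpina1b, chr12:103738316-103738375: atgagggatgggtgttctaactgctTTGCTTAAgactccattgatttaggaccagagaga
Serpina1c, chr12:103905076-103905135: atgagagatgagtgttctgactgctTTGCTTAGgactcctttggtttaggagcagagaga
Serpina1d, chr12:103773748-103773807: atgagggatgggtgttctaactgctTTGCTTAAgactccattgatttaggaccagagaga
Serpina1e, chr12:103957074-103957133: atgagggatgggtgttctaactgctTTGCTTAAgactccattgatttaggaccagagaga
The copies with the C/EBP letters were among the highest (Serpina1b) and the lowest (Serpina1e in bilCLiP) of the 3D levels. The 60 bases were the same in Serpina1b, Serpina1d and Serpina1e. The levels of these copies in RosaYFP 3D libraries ran from 1283 to 1755, 287 to 682 and 4.88 to 9.22 CPM. In the RosaConfetti libraries, hepCLiP 3D replicates 1 and 3, Serpina1b held 8017 and 6117 CPM. There Serpina1d held 972 and 1032 CPM, and Serpina1e 2677 and 1307 CPM. Values of single copies are uncertain, and a link between the letters and the levels was not tested.

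In RefSeq's gene order the cluster runs from Serpina10 and Serpina6 through the Serpina1 copies to the Serpina3 genes, with Serpina3n at the end. Of the 15 other named Serpina genes of the cluster that were listed, 7 had enough counts to be tested. In hepCLiP 6 of the 7 rose and in bilCLiP 3, where 16.9% and 15.8% of all tested genes rose. None fell, but neighbours such as Serpina11 and Serpina4-ps1 had at most 2 counts summed over a 2D group. They entered the test through their 3D counts and had no room to fall. Serpina11, which lies next to Serpina1e, rose from a mean of 0.0308 to 26.2 CPM in hepCLiP (log2 9.43 ± 0.82, adjusted p = 5.36e-05) and from 0.0152 to 27.3 CPM in bilCLiP (10.36 ± 0.87, adjusted p = 4.36e-05). Serpina3c and Serpina3i rose in both origins, to at most 8.28 CPM and 66.6 CPM. Serpina3f, Serpina3g and Serpina4-ps1 rose in hepCLiP, to at most 9.30, 5.39 and 1.39 CPM, and did not pass in bilCLiP (adjusted p = 0.0558, 0.102 and 0.0827). Serpina3h did not pass in hepCLiP (adjusted p = 0.185) or bilCLiP (adjusted p = 0.0790). Its libraries split otherwise than Serpina1e, with 82.2 CPM in hepCLiP 3D replicate 2 against 2.71 and 1.81 CPM in replicates 1 and 3, and 320, 79.8 and 55.9 CPM in bilCLiP 3D. The 8 untested neighbours, such as Serpina3b with 0 counts in every library and Serpina9, stayed at a mean of 3.26 CPM or less. Of the cluster genes outside that list, the pseudogene Serpina3e-ps, named after its values were seen, rose in bilCLiP from a mean of 0.0574 to 2.52 CPM (log2 5.31, adjusted p = 0.0317) and did not pass in hepCLiP (2.94, adjusted p = 0.219).

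**Figure D5:**
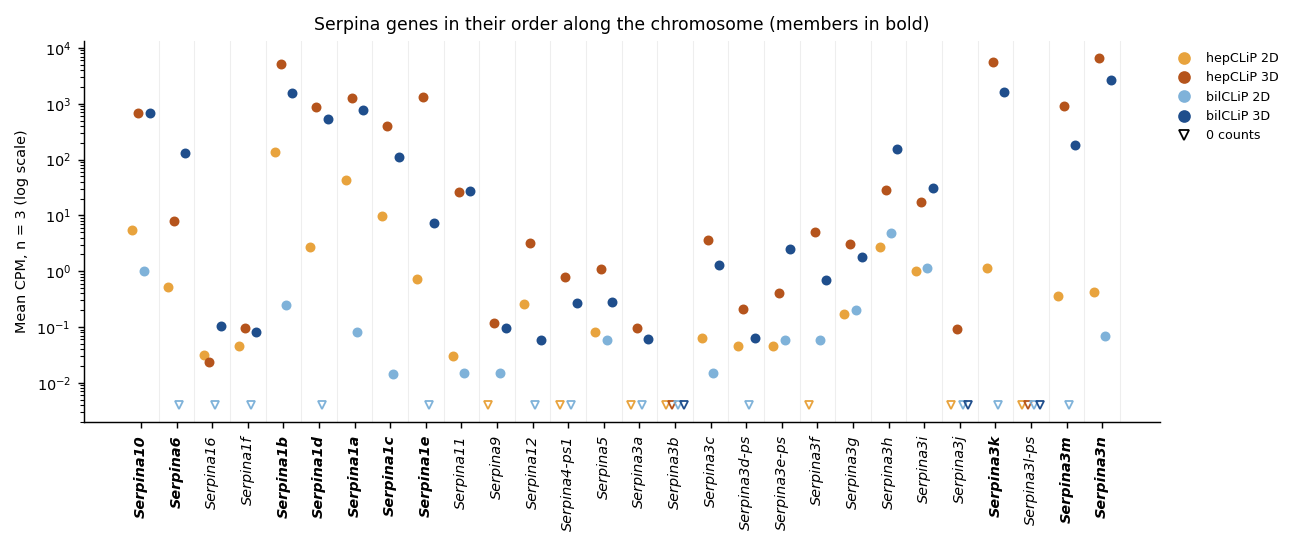
Mean CPM (n = 3, log scale) of 28 Serpina genes in their order along the chromosome for the 4 groups, with members in bold and groups at 0 counts as open triangles. Members stand above most of their neighbours in 3D, and the neighbours Serpina3h (28.9 and 152 CPM in hepCLiP and bilCLiP 3D), Serpina11 (26.2 and 27.3 CPM) and Serpina3i (17.5 and 31.5 CPM) are the highest of the rest.

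Serpin genes outside the cluster did not move one way. Of 13 tested, 6 rose in each origin, and 4 fell in hepCLiP and 3 in bilCLiP. Those that rose encode plasma serpins, led by Serpinc1 (antithrombin), from a mean of 0.681 to 715 CPM in hepCLiP (log2 10.01 ± 1.33, adjusted p = 0.000409) and from 0.225 to 202 CPM in bilCLiP (9.77 ± 1.37, adjusted p = 0.000632), and Serping1 (C1 inhibitor), from 0.461 to 531 CPM and from 0.672 to 278 CPM. Those that fell included, named after their values were seen, the intracellular Serpinb8 and Serpinb9 in both origins and Serpinb6a in hepCLiP. Serpinb9 fell by 1.77 on the log2 scale in hepCLiP and by 2.73 in bilCLiP. Serpinb9 was the one serpin of these lists called between origins, higher in bilCLiP 2D.

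Of 11 regulators of liver serpin genes, 8 rose in each origin, against the 16.9% and 15.8% of all genes. In hepCLiP 1 of them fell, and in bilCLiP none did. Cebpa, which encodes C/EBP alpha, stood at 6.20, 6.55 and 7.14 CPM in hepCLiP 2D and at 237, 188 and 186 CPM in 3D, and at 1.81, 1.52 and 2.32 against 63.4, 153 and 93.9 CPM in bilCLiP. Its log2 fold change was 4.94 ± 0.32 (SE; adjusted p = 1.12e-05) in hepCLiP and 5.78 ± 0.34 (adjusted p = 5.81e-06) in bilCLiP, the largest of the list. Replicate 2 of hepCLiP did not stand apart for it. Hnf4a, a hepatocyte nuclear receptor, rose by 1.63 ± 0.29 and 1.47 ± 0.29, from means of 310 to 959 CPM in hepCLiP and of 224 to 620 CPM in bilCLiP. Among the genes of oncostatin M signalling, Socs3, a feedback inhibitor that STAT3 induces, rose from 59.2 to 407 and from 64.0 to 430 CPM, and Osmr, the receptor subunit, from 52.6 to 203 and from 33.9 to 209 CPM. Il6ra (3.52 ± 0.32 and 3.66 ± 0.33), Stat3 (1.25 ± 0.19 and 0.87 ± 0.19), Nr3c1 (0.70 ± 0.18 and 0.58 ± 0.18) and Il6st (0.52 ± 0.16 and 0.67 ± 0.16) rose as well. Cebpb was at 145 and 145 CPM in hepCLiP and 110 and 101 CPM in bilCLiP, and did not pass. The median log2 fold change of the 11 was 1.25 in hepCLiP and 0.87 in bilCLiP.

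Of 16 proteases and partners that serpins of this family bind, 9 had too few counts to test, Elane (neutrophil elastase) among them at a mean of 0.0154 to 0.0468 CPM. The 7 tested included liver-made coagulation factors, of which 5 rose in hepCLiP and 4 in bilCLiP. Plg (plasminogen) rose from a mean of 1.14 to 1788 CPM in hepCLiP (log2 10.61 ± 0.89) and from 0.0759 to 1131 CPM in bilCLiP (13.83 ± 1.06). F9 rose by 10.93 ± 0.54 in hepCLiP, and F10, the zymogen whose active form Serpina10 inhibits, by 13.25 ± 1.04 in bilCLiP. Proz, which encodes the cofactor protein Z, rose by 8.71 ± 0.60 and 9.98 ± 0.66.

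Of 13 tested genes for folding, export and disposal of secreted proteins, 11 rose in hepCLiP and 9 in bilCLiP, and none fell, with medians of 0.97 and 0.88 (log2). Hspa5, the endoplasmic reticulum chaperone BiP, rose from 773 to 2279 CPM in hepCLiP (log2 1.56 ± 0.24) and from 735 to 2052 CPM in bilCLiP (1.48 ± 0.24). Pdia4, a disulphide isomerase, rose by 1.53 ± 0.25 in hepCLiP, and Mcfd2, which with Lman1 forms an export receptor for alpha-1-antitrypsin, by 1.33 ± 0.20 in bilCLiP. Of 6 tested clearance receptors, the asialoglycoprotein receptor genes Asgr1 and Asgr2 rose in both origins, and Lrp1, the receptor of serpin-protease complexes, did not pass (adjusted p = 0.0563 in hepCLiP and 0.0755 in bilCLiP).

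The genes whose profile over the 12 libraries was most like that of a member were ranked by the root mean square difference of centred log2(CPM + 1) among 10792 named genes. They are a description, with culture and library shared by all points. For the summed Serpina1 counts they were Ambp (1.81), Apoa1 (1.82) and Itih4 (1.83), against a median of 5.24 over all candidates. For Serpina3n they were Vtn (1.02), Itih3 (1.07) and Plg (1.26), with a median of 5.88. For Serpina10 they included Cyp2d10 (0.60) and C9 (0.64), with a median of 3.94, and for Serpina6 Inmt (1.29), Cyp1a2 (1.35) and Serpina3i (1.36), with a median of 2.44. With a pseudocount of 5, Ambp, Vtn and Cyp2d10 kept the first place, and Reg1 came before Serpina3i and Cyp1a2 for Serpina6.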

How the data were processed

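RNA-seq was measured in 12 libraries, 3 per group. Reads were aligned with STAR 2.7.10b and counted with featureCounts 2.0.1 on GRCm39, per the submitters' processing notes, which also name DESeq2. The deposited table holds raw counts per gene, and strand use is not given in the sources used here. A second deposited table holds normalized values, a signal that equals the authors' raw counts times 1 constant per library within a relative tolerance of 0.001.

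The counts were fitted over all 4 groups with the quasi-likelihood test of edgeR 4.0.16 (R 4.3.3), with TMM scaling, a filter on low counts by group and Benjamini-Hochberg adjustment over all 14798 genes kept, and a threshold of 0.05. The procedure was tested on simulated data. DESeq2 1.42.0, limma 3.58.1, other filters, scalings and sample sets were alternatives. Intervals and floors (3 counts summed over a group) cover counting error only, since PCR reads are not independent molecules.

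The members, gene lists and tests were chosen with earlier results of these data known. All members were named, with the tested cluster neighbours and regulators, the 2 called genes of largest change per culture comparison from each other list, and the 3 genes most like each chosen profile. A few genes that this rule names are not reported here. Same-numbered 2D and 3D samples deviated together (correlation 0.429 to 0.523 over genes), so that numbers pair cultures. The main fit did not use this pairing, so its SE include the spread between replicates. The replicate block, an alternative, used it. Across origins the correlation was 0.054 to 0.126, and numbers were not taken as pairs. Sequences come from RefSeq and GENCODE vM21 on GRCm38, not the authors' build.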

Additional observations from a re-analysis of the deposited data

How the results depend on the processing

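The culture comparison in hepCLiP was the most stable: 269 of 273 alternative values kept direction and side of the threshold. In bilCLiP 255 of 273 did, with none reversed in either. Between origins it was 240 of 264 in 2D, with 0 reversed, and 257 of 273 in 3D, with 9 reversed. For the difference of culture effects it was 247 of 261, with 5 reversed. Under limma-voom 6 members were called in bilCLiP and the Serpina1 sum did not pass (12.96, adjusted p = 0.068). The replicate block called 10 members in hepCLiP (Serpina6 at 3.55) and changed no other call. The origin comparisons rested on the setting. With DESeq2, 8 members were called in 2D, 2 in 3D and 1 for the difference of culture effects, and the Serpina1 sum passed at -9.13 in 2D and 7.46 for the difference and the Serpina3 sum at -4.77 in 2D. With the RosaConfetti hepCLiP samples against all bilCLiP samples, chosen after seeing the data, these counts were 6, 3 and 3, and the sums passed at -9.68 (2D), -2.07 (3D) and 7.62 (difference) for Serpina1 and -5.15 (2D) for Serpina3. Within RosaYFP samples the 3D difference reversed for the Serpina1 sum (0.13), Serpina1a (0.63), Serpina1b (0.091) and Serpina1e (0.058), the difference of culture effects for Serpina1e (0.058), Serpina3k (-0.34) and Serpina3m (-0.79), and the Serpina1d share (-6.00 points). Serpina3m also reversed for that difference with limma on the normalized values (-0.14), and Serpina10 in 3D with upper-quartile scaling (0.058) and the RosaConfetti set (0.094). The cause was not tested. Leaving out 1 library at a time, 0 to 4 members were called in 2D, 0 to 1 in 3D and 0 to 2 for the difference. The 4 (Serpina1a, Serpina1b, Serpina1c and Serpina1d) and the 2 (Serpina1a and Serpina1b) came without hepCLiP 2D replicate 2, and the 1 (Serpina1e) without hepCLiP 3D replicate 2. The Serpina1 sum ran from -9.68 (without hepCLiP 2D replicate 2, adjusted p = 0.00207) to -8.18 in 2D. For the difference it ran from 6.55 to 8.05 (the latter without the same library, adjusted p = 0.0364). The Serpina3 sum ran from -5.22 to -3.77 in 2D, and was called without hepCLiP 2D replicate 2 (-5.15, adjusted p = 0.03995). Serpina1e ran from -1.61 to 0.30 (without hepCLiP 3D replicate 1) for the difference, Serpina6 in 3D from -0.76 (without bilCLiP 3D replicate 1) to 6.62, and Serpina10 in 3D from -0.16 to 0.10 (without bilCLiP 3D replicate 3). At this depth 5 members had no count in bilCLiP 2D, so that their changes there are lower bounds.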
